A study of Mus musculus with 16 samples.

Results

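The histone genes were read from 28 of the 45101 probe sets on the array, which represent 19 genes. A probe set, the group of short probes that reads 1 transcript, was taken where its only listed gene symbol was that of a linker histone H1 gene, a clustered H2A, H2B, H3 or H4 gene, or a variant of H2A or H3. The pattern of symbols used no measured value, but the genes were proposed for study with the difference between transplanted and steady-state stem cells already known, so that difference is described here without a test. The clustered genes gave 14 probe sets of 10 genes, and the replacement variants gave 14 probe sets of 9 genes. No H4 gene had a probe set to itself. A further 24 histone probe sets, 5 of them for H4, list several genes at once and are no members.

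Histones package DNA into nucleosomes: H2A, H2B, H3 and H4 form the core, and H1 binds the linker between cores. The clustered genes lie side by side in the genome and supply histones during DNA replication. Their messenger RNAs normally end in a stem-loop, bound by the protein SLBP, in place of a poly(A) tail, although some clustered genes also give polyadenylated transcripts. The messages of replacement variants such as H2A.Z and H3.3 are encoded outside the clusters, carry poly(A) tails and are made throughout the cell cycle. H2A.X was counted in this class here. Labelling that is primed with oligo(dT) copies polyadenylated RNA.

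The 16 arrays fall into 7 groups, all of wild type C57Bl6 mouse cells per the labels. Haematopoietic stem cells (HSC), the rare marrow cells that renew all blood lineages, came from the marrow of steady-state males aged 3 to 4 months (young, 3 arrays) or 21 to 24 months (aged, 3 arrays). HSC sorted from recipients of young or of aged marrow gave 2 arrays each, and the labels state no age or sex for these donors or recipients. Blood-derived cells that had been reprogrammed to pluripotency (induced pluripotent stem cells, iPSC) gave 2 arrays of young and 2 of aged origin. Embryonic stem cells (ESC) gave 2 arrays, 1 for each of the suppliers Open Biosystems and Primogenix. The iPSC and ESC were grown on mouse embryonic fibroblast (MEF) feeders and sorted. The labels give the same RNA extraction kit, standard Affymetrix labelling and input of 10000 cells for every group. All arrays but those of ESC are labelled biological replicates; the number of animals behind an array is not stated in the labels.

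Values are log2 of the intensity that the authors deposited, and every difference is a difference of group means on that scale. Array medians lay between 43.5 and 51.9 on the linear scale. The 25th percentile of an array lay between 4.11 and 4.31 on the log2 scale, and levels near it cannot be told from background, since no detection calls were used here. The transplanted pairs correlated less closely across probe sets (r = 0.945 in young and 0.966 in aged) than the arrays of any other group (0.981 to 0.993). Of 10 HSC marker genes, 8 were measured. Their summed level was 14.39 to 14.66 (log2) on the steady-state arrays, 12.86 to 13.05 on the transplanted arrays and 9.12 to 9.43 on the iPSC and ESC arrays, and each of the 8 was lower in transplanted than in steady-state HSC. All 8 pluripotency markers were higher in iPSC than in steady-state HSC. Summed markers of mature blood (10 of 12 measured) overlapped between steady-state (10.62 to 11.69) and transplanted HSC (10.51 to 11.56). Summed fibroblast and feeder markers (8 of 9 measured) were 8.31 to 8.50, 7.87 to 8.48 and, in iPSC and ESC, 10.22 to 10.70. In such bulk samples, fewer cells of a type and less RNA per cell cannot be told apart.

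The promoters of 4 members with large differences between transplanted and steady-state HSC are shown, 3 of clustered genes and 1 of a replacement variant, so that the boxes in them can be compared. RefSeq windows (build GRCm38.p6) from 250 bases before to 50 after the start were matched for 16 of the 19 genes. These motifs were searched on both strands: the octamer ATTTGCAT (reverse ATGCAAAT), the CCAAT box CCAAT (reverse ATTGG) and the TATA box TATAAA (reverse TTTATA). The 150 bases before the start are printed 5′ to 3′ on the strand of the gene, with matches in capitals: H1f4 (chr13:23622559-23622708, minus strand), H2bc22 (chr13:21787338-21787487, plus strand), H3c4 (chr13:23575613-23575762, plus strand) and H3f3b (chr11:116024505-116024654, minus strand).
H1f4: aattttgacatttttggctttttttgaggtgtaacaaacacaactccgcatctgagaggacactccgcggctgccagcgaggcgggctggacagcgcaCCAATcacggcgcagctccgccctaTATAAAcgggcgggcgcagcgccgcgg
H2bc22: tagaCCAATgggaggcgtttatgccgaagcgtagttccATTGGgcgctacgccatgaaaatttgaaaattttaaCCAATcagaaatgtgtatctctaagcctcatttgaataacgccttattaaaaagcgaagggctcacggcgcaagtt
H3c4: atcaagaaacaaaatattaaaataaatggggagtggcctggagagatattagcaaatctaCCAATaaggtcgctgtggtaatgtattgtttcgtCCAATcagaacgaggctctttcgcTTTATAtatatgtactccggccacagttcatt
H3f3b: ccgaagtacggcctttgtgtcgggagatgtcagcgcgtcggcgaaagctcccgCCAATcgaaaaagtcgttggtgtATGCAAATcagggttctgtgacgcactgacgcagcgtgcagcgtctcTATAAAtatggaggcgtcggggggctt

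H1f4, H2bc22 and H3c4 lack the octamer in this stretch. H1f4 has its TATA match 27 bases before the start and H3c4 has 1 at 32 bases before, while H2bc22 has none in this stretch. The H3.3 gene H3f3b holds all 3 motifs, with the TATA match also at 27 bases before the start. Over the 300-base windows, a CCAAT match stood in 8 of 8 clustered genes and in 6 of 8 variant genes, against 37.4% of all 32851 windows. A TATA match stood in 4 of 8 and 1 of 8, against 13.6% of all windows. The octamer stood in 1 of 8 of each class, against 1.74%. A match is a description of the letters only.

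Transplanted HSC differed from steady-state HSC in a few histone genes by large amounts and in opposite directions. H1f4, a clustered linker histone, read 8.75 to 9.71 on the transplanted arrays and 3.10 to 4.09 on the steady-state arrays, where it lay below the 25th percentile, so no fold is given. The clustered core histone H2bc22 was 13.9-fold higher. The clustered H3 gene H3c4 was lower, at 3.53 to 3.79 against 5.63 to 6.76, again with no fold because the transplanted values lie below the 25th percentile. H3f3b, which encodes H3.3, was 2.53-fold lower at the only probe set listed for it alone, with overlap between the arrays. Each class held differences of both signs: 8 of 14 clustered and 8 of 14 replacement probe sets were above 0. Each comparison sets 4 transplanted against 6 steady-state arrays, and each SE comes from the fit to the 10 HSC arrays.

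Among the linker histones, H1f4 read 3.71, 3.53 and 4.09 on the young steady-state arrays, 3.10, 3.44 and 3.23 on the aged steady-state arrays, 9.03 and 9.71 on the young transplanted arrays and 9.12 and 8.75 on the aged transplanted arrays. All 6 steady-state values lie below the 25th percentile of their array and all 4 transplanted values lie far above it, with no overlap. The difference was 5.63 (SE 0.18), or 3.07 with 64 added to each intensity before the log, so its size rests on a dim steady-state level. H1f4 read 4.61 and 4.72 in young-origin iPSC, 3.85 and 4.47 in aged-origin iPSC and 3.85 and 4.10 in ESC, near the background of those arrays.

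H1f2, a somatic linker histone that is abundant in many tissues, has 3 probe sets, and these disagreed. Probe set 1416101_a_at read 11.80, 10.29 and 10.37 on the young steady-state arrays, 11.63, 10.97 and 10.46 on the aged steady-state arrays, 11.03 and 9.26 on the young transplanted arrays and 7.67 and 9.82 on the aged transplanted arrays. Its transplanted values spread over 7.67 to 11.03 and overlap the steady-state ones, with a difference of -1.48 (SE 0.53) that became -0.94 without aged transplanted replicate 1. Probe set 1436994_a_at gave -0.99 (SE 0.43), or -0.58 without the same array. Probe set 1438204_at went the other way: it read 6.05, 5.97 and 6.06 on the young steady-state arrays, 5.84, 5.89 and 5.83 on the aged steady-state arrays, 7.44 and 7.89 on the young transplanted arrays and 7.48 and 7.80 on the aged transplanted arrays. There the groups did not overlap, and the difference was 1.72 (SE 0.12), or 1.08 with 64 added.

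The other linker histones differed less. H1f6, a testis linker histone encoded in the cluster, differed by 0.57 (SE 0.19), or 0.36 without young transplanted replicate 1, with overlap. Of the variants, H1f10 read 6.75, 6.80 and 6.94 on the young steady-state arrays, 6.35, 6.91 and 6.52 on the aged steady-state arrays, 6.64 and 4.60 on the young transplanted arrays and 5.52 and 5.33 on the aged transplanted arrays. Only young transplanted replicate 1 lay within the steady-state range. The difference was -1.19 (SE 0.33), or -0.68 without young transplanted replicate 2 and -0.58 with 64 added. The germ-cell linker histones H1f7 (probe set 1430181_at, 1.10, SE 0.12) and H1f8 (oocyte, 0.94, SE 0.15) were higher on every transplanted than on every steady-state array, at levels of at most 6.31 and 5.62. H1f8 read 4.08 to 4.43 on the steady-state arrays, near their 25th percentile (4.11 to 4.17), so the size of its difference is uncertain. The second H1f7 probe set, 1441954_s_at, read 3.17 to 3.70 on all 16 arrays, below the 25th percentile of each.

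Of the clustered H2A genes only H2ac19 had its own probe sets. Probe set 1418366_at read 7.29, 5.48 and 5.99 on the young steady-state arrays, 6.22, 6.14 and 5.80 on the aged steady-state arrays, 7.57 and 8.20 on the young transplanted arrays and 7.86 and 8.20 on the aged transplanted arrays. Every transplanted array was above every steady-state array, the difference being 1.80 (SE 0.32), or 1.19 with 64 added. The second probe set differed by 0.82 (SE 0.27), with young steady-state replicate 1 above all transplanted arrays.

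H2aj encodes H2A.J, a variant known to build up in senescent fibroblasts. Its probe set 1424771_at read 9.63, 8.94 and 9.43 on the young steady-state arrays, 9.19, 9.58 and 9.25 on the aged steady-state arrays, 10.87 and 11.15 on the young transplanted arrays and 11.36 and 11.18 on the aged transplanted arrays. Probe set 1424772_at read 7.72, 7.44 and 7.13 on the young steady-state arrays, 7.38, 7.26 and 7.28 on the aged steady-state arrays, 5.38 and 6.95 on the young transplanted arrays and 6.01 and 6.93 on the aged transplanted arrays. The groups did not overlap in either, but the first was higher (1.80, SE 0.16) and the second lower (-1.05, SE 0.30) in transplanted HSC. The second was -0.66 without young transplanted replicate 1. The remaining probe set, 1440252_at, was also higher without overlap (1.67, SE 0.27). So the direction for H2aj, as for H1f2, is not settled by these arrays.

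The remaining H2A variants differed less or were lower. H2az1, which encodes the main H2A.Z, differed by 0.03 and 0.05 (SE 0.14 and 0.13), and by -0.11 and -0.08 without young transplanted replicate 1 and -0.034 and -0.005 without aged transplanted replicate 2, so it has no settled direction. H2az2, the other H2A.Z gene, read 9.91, 9.79 and 10.06 on the young steady-state arrays, 9.30, 9.62 and 9.51 on the aged steady-state arrays, 8.78 and 9.21 on the young transplanted arrays and 8.74 and 8.56 on the aged transplanted arrays with probe set 1428029_a_at. All 4 transplanted values were below all 6 steady-state values, and the difference was -0.88 (SE 0.13). Its other probe set gave -0.89 (SE 0.20), with overlap. H2ax, whose phosphorylated form marks DNA breaks, gave -0.45 (SE 0.20), with overlap.

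The clustered H2B genes split. H2bc22 read 5.42, 4.96 and 5.14 on the young steady-state arrays, 4.82, 5.55 and 4.52 on the aged steady-state arrays, 8.12 and 9.74 on the young transplanted arrays and 8.94 and 8.67 on the aged transplanted arrays. The highest steady-state value was 5.55 and the lowest transplanted value 8.12. The difference was 3.80 (SE 0.32), or 2.45 with 64 added. The ending _x_at of its name marks a probe set with probes that may bind related sequences, so near-identical H2B transcripts can add to it. H2bc21, known to give polyadenylated transcripts in differentiated cells, read 9.52, 9.69 and 9.64 on the young steady-state arrays, 8.87, 9.69 and 9.68 on the aged steady-state arrays, 8.38 and 8.77 on the young transplanted arrays and 8.36 and 7.65 on the aged transplanted arrays with probe set 1447854_s_at. These were lower on each transplanted array (-1.22, SE 0.21), whereas probe set 1455095_at gave 0.28 (SE 0.28), with young transplanted replicate 2 at 8.55 and the other transplanted arrays at 6.81 to 7.17. Without that replicate the difference of 1455095_at was -0.06, without young transplanted replicate 1 it was 0.63 and without aged steady-state replicate 1 it was 0.13. The ending _s_at marks a probe set that may read several transcripts. H2bc18 gave -0.40 (SE 0.13) at levels of 4.37 to 5.17.

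The H3 genes also differed among themselves. H3c4 read 5.63, 6.41 and 5.88 on the young steady-state arrays, 5.67, 6.76 and 5.99 on the aged steady-state arrays, 3.79 and 3.53 on the young transplanted arrays and 3.60 and 3.77 on the aged transplanted arrays. Its 4 transplanted values lie below the 25th percentile of their arrays, so the difference of -2.38 (SE 0.23) has an uncertain size, and it was -0.78 with 64 added. H3c7 read 5.73, 5.79 and 5.38 on the young steady-state arrays, 5.23, 6.02 and 5.59 on the aged steady-state arrays, 8.23 and 6.04 on the young transplanted arrays and 5.84 and 6.07 on the aged transplanted arrays. Its difference of 0.92 (SE 0.37) comes with a young transplanted replicate 1 that lies above all other HSC arrays, and was 0.37 without that array and 1.47 without young transplanted replicate 2. H3c11 gave -0.74 (SE 0.20) near background.

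The variant H3.3 is encoded by H3f3a and H3f3b. H3f3a read 6.37, 6.51 and 6.14 on the young steady-state arrays, 6.60, 5.73 and 6.12 on the aged steady-state arrays, 7.61 and 7.19 on the young transplanted arrays and 7.94 and 6.78 on the aged transplanted arrays, without overlap and with a difference of 1.13 (SE 0.25). H3f3b read 9.82, 12.23 and 12.32 on the young steady-state arrays, 11.73, 12.00 and 12.28 on the aged steady-state arrays, 11.09 and 9.72 on the young transplanted arrays and 10.31 and 10.43 on the aged transplanted arrays. Young steady-state replicate 1 lies below the other steady-state arrays and within the transplanted range, and the difference was -1.34 (SE 0.49). At these probe sets, 1 for each gene, the differences had opposite signs. Probe sets that list 6 H3 genes, H3.3 genes among them, differed by -1.58, -0.79, -0.52, 0.56 and 0.78. The direction for either H3.3 gene is thus not settled by these arrays.

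**Figure D1:**
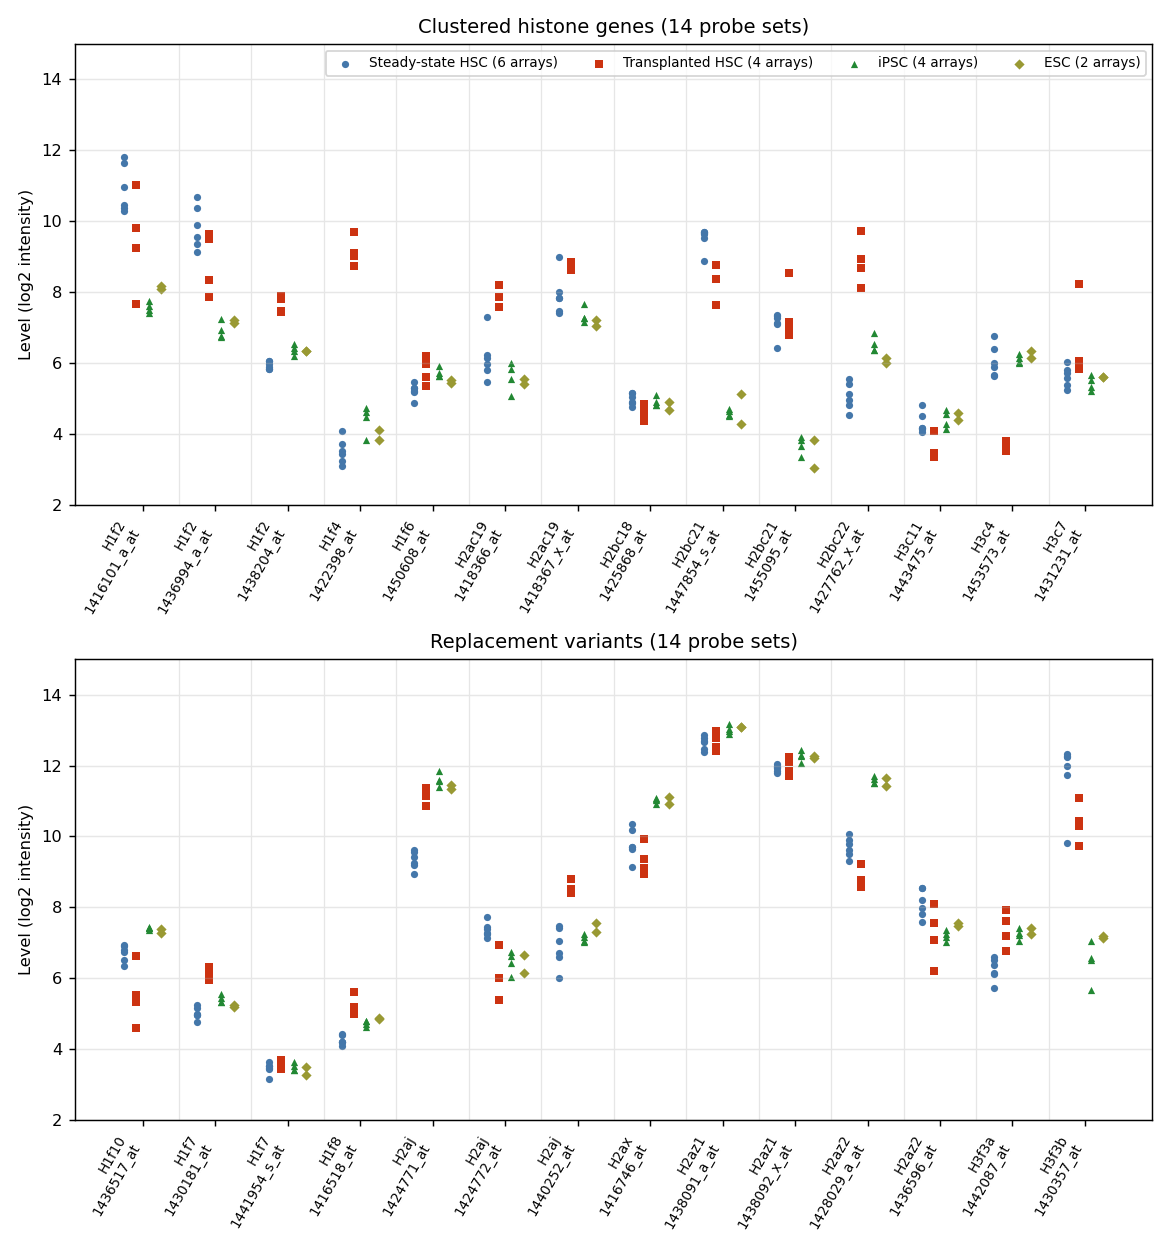
Level (log2 intensity) of all 28 histone probe sets, clustered genes above and replacement variants below, with 1 point for each of 16 arrays and colours for steady-state HSC, transplanted HSC, iPSC and ESC. H1f4 and H2bc22 stand apart in transplanted HSC (8.75 to 9.71 and 8.12 to 9.74), and H2bc21 and H3f3b are lowest in iPSC and ESC.

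Counted over the classes, 4 clustered and 4 replacement probe sets were more than 1 log2 unit higher in transplanted than in steady-state HSC, against 16.3% of all 45037 non-control probe sets. In each class 3 were more than 1 unit lower, against 17.3%. All transplanted arrays lay above all steady-state arrays for 4 clustered and 5 replacement probe sets (21.9% of all probe sets) and below for 2 and 2 (24.8%). Nothing is read from these shares, because this contrast was in view when the genes were proposed. The median difference was 0.43 over the clustered and 0.043 over the replacement probe sets, and -0.041 over all probe sets. Array medians were 5.44 to 5.49 (log2) in steady-state and 5.65 to 5.70 in transplanted HSC, and with each array centred on its median the class medians were 0.22 and -0.16. With 1 probe set per gene, the brightest, these medians were 0.088 and 0.032.

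The per-array medians show the classes differently. The median level of the 14 clustered probe sets was 5.75 to 6.08 on the steady-state arrays, 7.57 to 8.26 on the transplanted arrays and 5.42 to 5.96 on the iPSC and ESC arrays. That of the 14 replacement probe sets was 7.48 to 8.13, 7.74 to 8.44 and 7.15 to 7.45. The clustered median thus stood highest on all 4 transplanted arrays, without overlap, while the replacement medians of both HSC kinds overlapped. The shift in the clustered median level exceeds the median of the differences because other probe sets stood in the middle of the ranking on the transplanted arrays. The within-group SD of a class median, pooled over the 7 groups, was 0.19 for the clustered and 0.18 for the replacement class.

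**Figure D2:**
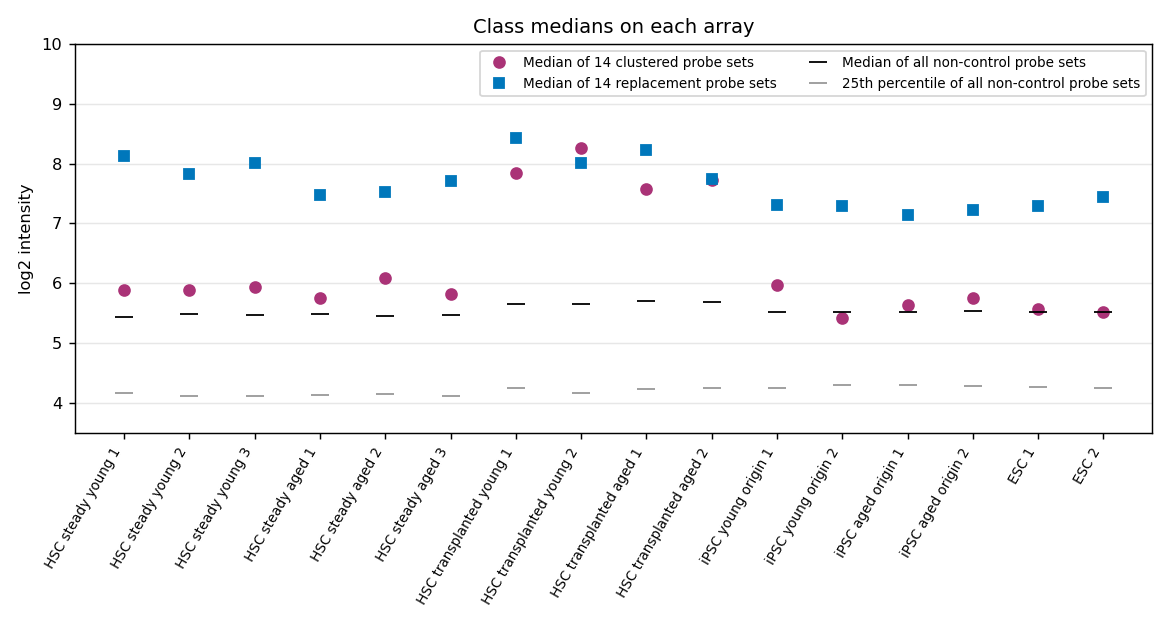
Median level (log2 intensity) of the 14 clustered (circles) and 14 replacement (squares) probe sets on each of 16 arrays, with bars for the median and the 25th percentile of all non-control probe sets. The clustered median is 7.57 to 8.26 on the 4 transplanted arrays and 5.42 to 6.08 on the other 12; levels of different probe sets are not comparable between the classes.

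Probe sets that list several histone genes, looked at after their values were seen, also differed between transplanted and steady-state HSC. A probe set listed for 11 H2B genes had group means of 7.28 and 6.89 in young and aged steady-state HSC, 12.76 and 12.80 in young and aged transplanted HSC, and 9.70, 9.42 and 9.03 in young-origin iPSC, aged-origin iPSC and ESC. Its difference between transplanted and steady-state HSC was 5.69. A probe set for 13 H4 genes had group means of 8.20 and 7.86 in steady-state HSC and 12.50 and 12.55 in transplanted HSC, a difference of 4.50. The other 4 H4 probe sets differed by -0.20 to 1.06. For H3, a probe set of 2 genes differed by 3.07 and 1 of 12 genes by 2.14. Over all 24 such probe sets, 7 were more than 1 log2 unit higher, 1 was more than 1 unit lower, and the median difference was 0.57. Over all non-control probe sets 16.3% were that much higher and 17.3% lower, with a median of -0.041. Some of the 24 list H3.3 genes, so they are no set of clustered genes alone. Nothing is read from these counts, because this contrast was in view when the genes were proposed. Which of the listed genes gave these levels cannot be told apart.

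**Figure D3:**
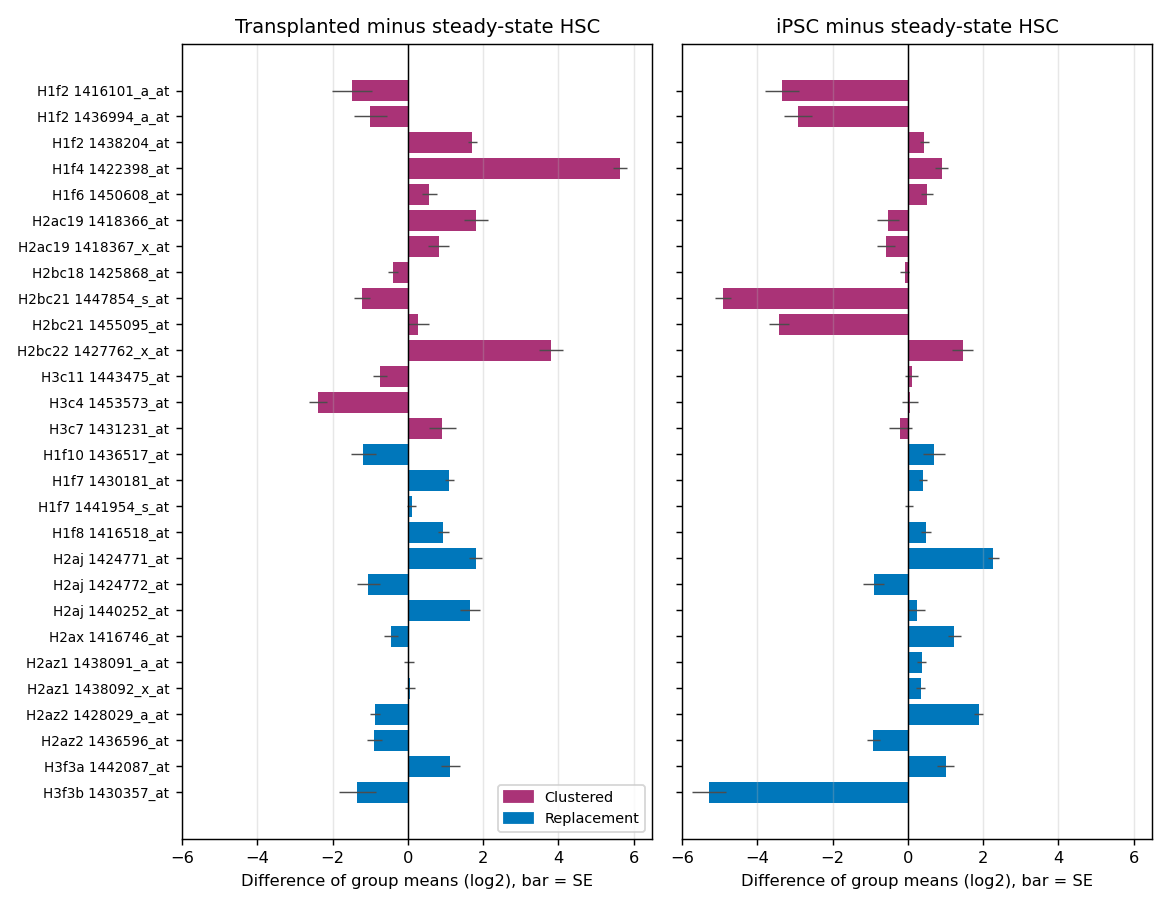
Difference of group means (log2) with its SE for each of 28 histone probe sets, for transplanted minus steady-state HSC (left, a description) and iPSC minus steady-state HSC (right). H1f4 (5.63) and H2bc22 (3.80) lead on the left and H3f3b (-5.28) and H2bc21 (-4.91) on the right; both panels share the 6 steady-state arrays.

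Control probe sets also differed on the transplanted arrays; 18S ribosomal RNA, transferrin receptor and pyruvate carboxylase were added to the controls after their values were seen. 18S ribosomal RNA has no poly(A) tail. Its middle probe set read 10.64 to 12.54 on the steady-state arrays, 14.50 to 14.57 on the transplanted arrays and 12.19 to 12.77 on the iPSC and ESC arrays. The transplanted arrays thus lay highest, without overlap. The level at the 3′ end minus that at the 5′ end of Actb was 1.98 to 2.25 on the steady-state arrays, -0.26 to -0.05 on the transplanted arrays and 1.97 to 2.69 on the iPSC and ESC arrays. For Gapdh the ranges were 2.88 to 3.32, 1.79 to 2.37 and 2.64 to 3.42. On both transcripts this 3′ excess was smallest on the 4 transplanted arrays. The excess of Gapdh over its middle probe set was not (0.96 to 1.14, 1.06 to 1.85 and 0.69 to 1.15).

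The control probe set for the polyadenylated spike LysX read 8.81 to 9.92, 5.65 to 7.02 and 8.72 to 9.26 on the same kinds of array. The spikes did not all separate the transplanted arrays. A second probe set for that spike read 7.955 to 9.24, 6.87 to 7.86 and 7.59 to 8.33, with overlap between transplanted and pluripotent arrays. For the spikes DapX and PheX the transplanted range overlapped both other kinds. A second probe set for PheX lay apart (9.125 to 10.29, 6.72 to 8.14 and 8.475 to 9.16). Of the 15 other RNAs without a poly(A) tail that were looked up, 0 had a single-symbol probe set. The labels describe the same preparation for all groups. All 4 transplanted arrays still differ from the others in middle 18S, in LysX and in 3′ minus 5′ of Actb and Gapdh. The control probe sets BioB and CreX, not among the planned controls, also set them apart, in opposite directions. On steady-state, transplanted and pluripotent arrays BioB read 8.35 to 9.32, 7.84 to 8.07 and 8.295 to 9.02. CreX read 13.80 to 14.08, 14.775 to 14.82 and 13.06 to 13.47. Transplantation and array preparation thus cannot be told apart for H1f4, H2bc22, H2ac19, H3c4 or any other member. Some controls also set the iPSC apart from the steady-state arrays. The 5′ probe set of 18S read 13.59 to 13.93 against 11.24 to 12.63. The 3′ minus 5′ level of transferrin receptor was 2.495 to 2.74 against 1.22 to 1.88. For middle 18S, Actb, Gapdh and LysX these kinds overlapped. The part of the controls in the member differences was not tested.

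**Figure D4:**
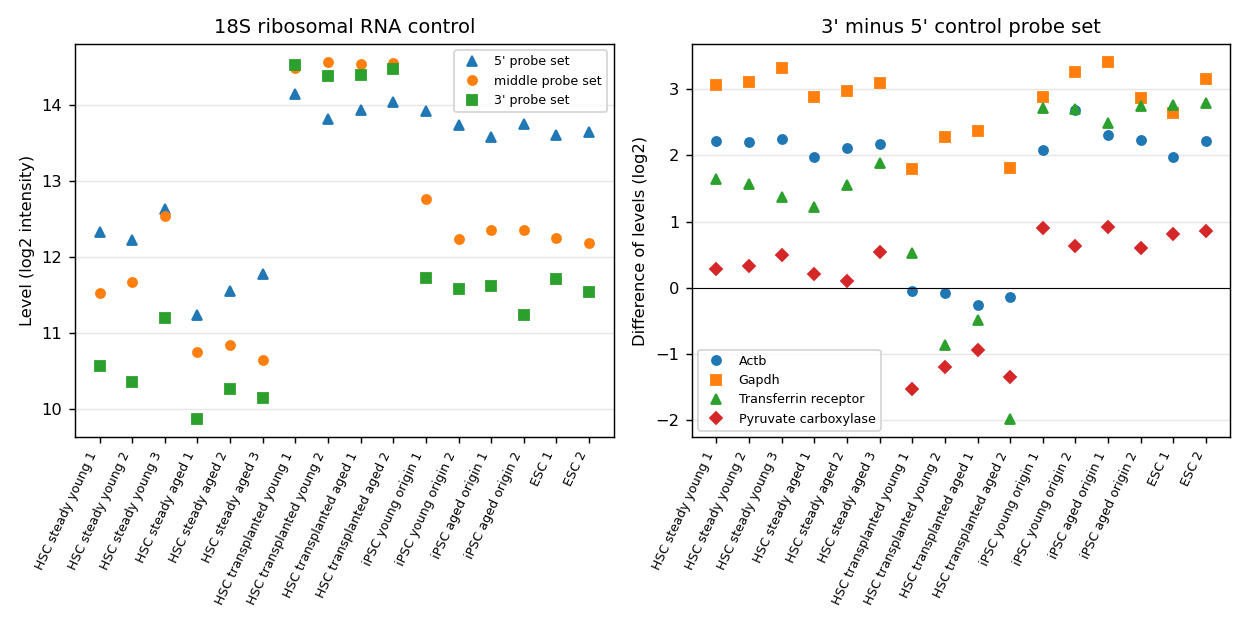
Left: level (log2 intensity) of the 5′, middle and 3′ probe sets of 18S ribosomal RNA on each of 16 arrays. Right: 3′ minus 5′ level (log2) of Actb, Gapdh, transferrin receptor and pyruvate carboxylase. The 4 transplanted arrays have the highest levels of the middle (14.50 to 14.57) and 3′ (14.39 to 14.53) 18S probe sets and the lowest Actb differences (-0.26 to -0.05).

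The comparison of iPSC with steady-state HSC set the same genes in reprogrammed cells against the steady-state stem cells and was tested. The clustered H2B gene H2bc21 fell 30.1-fold and the H3.3 gene H3f3b fell 38.8-fold, and H1f2 fell 10.2-fold at its brightest probe set. The variants H2aj, H2az2 and H2ax rose 4.82-fold, 3.70-fold and 2.36-fold at theirs, and the clustered H2bc22 rose 2.75-fold. In all, 20 of 28 members passed limma's test at an adjusted p under 0.05, 13 higher and 7 lower. That share is to be read against 57.4% of all probe sets called, 33.8% higher and 23.6% lower. Of the clustered probe sets 4 rose and 4 fell, and of the replacement ones 9 rose and 3 fell. The median difference was -0.14 over the clustered and 0.39 over the replacement probe sets, against 0.15 over all. With the brightest probe set per gene, the replacement median was 0.70. The sum of fibroblast and feeder markers was also higher in iPSC, as given above, and 5 of its 8 genes rose. Some preparation controls also lay apart between these arrays, as given above. The part of either in the member differences was not tested.

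H2bc21 carried the largest clustered change. With probe set 1447854_s_at it read 4.50 and 4.71 in young-origin iPSC, 4.65 and 4.54 in aged-origin iPSC and 5.12 and 4.28 in ESC, against 8.87 to 9.69 on the steady-state arrays. The change was -4.91 (SE 0.21, adjusted p = 2.64e-10). Probe set 1455095_at read 3.34 and 3.84 in young-origin iPSC, 3.67 and 3.91 in aged-origin iPSC and 3.82 and 3.04 in ESC, against 6.44 to 7.36, a change of -3.41 (SE 0.27, adjusted p = 1.15e-07). Both probe sets agreed in direction. The iPSC values of the first lie near the 25th percentile of those arrays (4.26 to 4.31), and those of the second lie below it. Both folds thus have an uncertain size (with 64 added, -3.17 for the first and -1.40 for the second). H2bc22 read 6.38 and 6.85 in young-origin iPSC, 6.36 and 6.53 in aged-origin iPSC and 5.999 and 6.16 in ESC, all above the steady-state range, and rose by 1.46 (SE 0.28, adjusted p = 0.000470), or 0.67 with 64 added.

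For H1f2, probe set 1416101_a_at read 7.62 and 7.51 in young-origin iPSC, 7.42 and 7.74 in aged-origin iPSC and 8.09 and 8.16 in ESC, a change of -3.35 (SE 0.45, adjusted p = 2.42e-05). Probe set 1436994_a_at changed by -2.92 (SE 0.37, adjusted p = 1.44e-05). Again 1438204_at went the other way, by 0.43 (SE 0.12, adjusted p = 0.00629). H1f4 rose by 0.90 (adjusted p = 0.000650), but by 0.18 with 64 added, where it was not called (adjusted p = 0.172). H1f6 rose by 0.51 (adjusted p = 0.0185); this call was lost without aged-origin iPSC replicate 1 (0.50, adjusted p = 0.0565) or young-origin iPSC replicate 1 (0.44, adjusted p = 0.0786). The other clustered probe sets, of H2ac19, H2bc18, H3c11, H3c4 and H3c7, did not pass, with differences of -0.58 to 0.10. H2ac19 probe set 1418367_x_at was near the threshold (adjusted p = 0.0537) and passed in some alternatives.

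H3f3b read 6.52 and 6.57 in young-origin iPSC, 5.66 and 7.05 in aged-origin iPSC and 7.15 and 7.21 in ESC, against 9.82 to 12.32 on the steady-state arrays, and fell by 5.28 (SE 0.45, adjusted p = 2.82e-07). Only 1 probe set is listed for it alone. Of 5 probe sets that list 6 H3 genes, H3.3 genes among them, 1 was lower in iPSC by 2.29. The other 4 differed by -0.28 to 0.31. These probe sets thus differ in direction as well as size, and the large fall rests on the probe set listed for H3f3b alone. H3f3a read 7.42 and 7.23 in young-origin iPSC, 7.06 and 7.28 in aged-origin iPSC and 7.24 and 7.41 in ESC and rose by 1.00 (SE 0.22, adjusted p = 0.00141), or 0.62 with 64 added.

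Among the H2A variants, H2aj rose at 1424771_at, reading 11.61 and 11.85 in young-origin iPSC, 11.56 and 11.40 in aged-origin iPSC and 11.33 and 11.45 in ESC (2.27, SE 0.15, adjusted p = 1.49e-08). It fell at 1424772_at (-0.91, adjusted p = 0.0107), a call lost without young-origin iPSC replicate 2 (-0.81, adjusted p = 0.05003) and with quantile normalisation (-0.65, adjusted p = 0.0560). At 1440252_at it did not pass (0.24, adjusted p = 0.401). H2az2 likewise rose at 1428029_a_at, reading 11.70 and 11.52 in young-origin iPSC, 11.61 and 11.51 in aged-origin iPSC and 11.42 and 11.64 in ESC (1.89, SE 0.12, adjusted p = 1.45e-08). It fell at 1436596_at, reading 7.03 and 7.37 in young-origin iPSC, 7.24 and 7.16 in aged-origin iPSC and 7.57 and 7.48 in ESC (-0.92, SE 0.17, adjusted p = 0.000520). For both genes the direction thus depends on the probe set.

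H2ax read 11.02 and 11.06 in young-origin iPSC, 11.08 and 10.92 in aged-origin iPSC and 10.91 and 11.13 in ESC, each above the steady-state range of 9.13 to 10.36, and rose by 1.24 (SE 0.17, adjusted p = 3.03e-05). H2az1 rose by 0.36 and 0.35 (adjusted p = 0.0220 and 0.0247), calls that were lost with quantile normalisation (0.28 and 0.30, adjusted p = 0.0930 and 0.0562) and with arrays centred on their medians (0.31 and 0.29, adjusted p = 0.0514 and 0.0594). Both were also lost without aged-origin iPSC replicate 1 (0.33 and 0.29) or young-origin iPSC replicate 2 (0.32 and 0.31), and 1438092_x_at without aged steady-state replicate 2 (0.32). The linker variant H1f10 rose by 0.70 (adjusted p = 0.0493), a call at the threshold that was lost in 15 of 24 alternatives (adjusted p 0.000147 to 0.115 over all 24). H1f7 (1430181_at, 0.41, adjusted p = 0.00652) and H1f8 (0.48, adjusted p = 0.00636) rose from low levels, by 0.15 and 0.12 with 64 added.

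Of 7 genes with more than 1 probe set, 4 had the same sign in all of them for transplanted minus steady-state HSC, and 3 did not (H1f2, H2aj and H2bc21). For iPSC minus steady-state HSC the split was also 4 and 3, with H2az2 in place of H2bc21; the contrasts share the steady-state arrays. Over the 16 arrays, which share their groups and preparation, the H1f2 probe sets 1416101_a_at and 1436994_a_at correlated at r = 0.971, and with 1438204_at at -0.213 and -0.113. For H2aj, r was -0.732 between 1424771_at and 1424772_at. The probe sets of H2bc21 (0.948), H2az1 (0.949) and H2ac19 (0.90) followed each other closely over the 16 arrays. For H2bc21 this r includes the gap between HSC and the iPSC and ESC arrays, where both probe sets read lowest. Between transplanted and steady-state HSC they differed by -1.22 and 0.28, so close agreement within HSC is not shown.

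**Figure D5:**
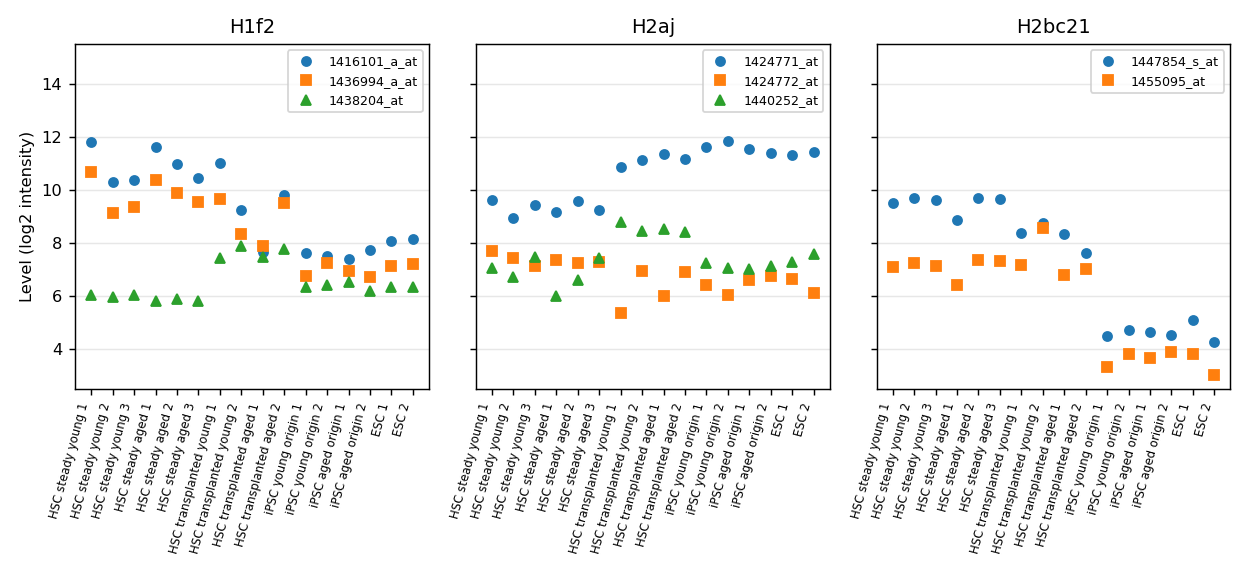
Level (log2 intensity) of each probe set of H1f2, H2aj and H2bc21 on 16 arrays. H1f2 1438204_at is highest in transplanted HSC (7.44 to 7.89) while the other H1f2 probe sets are not, and H2aj 1424771_at and 1424772_at differ from steady-state HSC in opposite directions.

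Age within HSC was tested on 10 arrays. In steady-state HSC 0 of 28 members passed limma's test in aged minus young, against 0.495% of all probe sets, and 3 had an unadjusted p under 0.05. These were H1f4 (-0.52, SE 0.23, adjusted p = 1.00) and both probe sets of H2az2 (-0.44 and -0.65, adjusted p = 0.821 and 0.865). H2az2 probe set 1436596_at read 8.55, 8.22 and 8.55 in young and 7.58, 7.81 and 7.99 in aged steady-state HSC, without overlap. Differences lay between -0.65 and 0.55, with 21 of 28 below 0 and medians of -0.15 (clustered) and -0.16 (replacement) beside -0.02 over all probe sets.

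In transplanted HSC 0 of 28 passed, against 0.833% of all probe sets, and 1 had an unadjusted p under 0.05. It was H2az2 probe set 1436596_at again, which read 8.09 and 7.56 with young and 6.20 and 7.07 with aged donor marrow (-1.19, SE 0.31, adjusted p = 0.127). It passed with all 16 arrays in 1 fit (adjusted p = 0.0291) and without young transplanted replicate 2 (-1.46, adjusted p = 0.0448). Without that replicate H3c7 (-2.27, adjusted p = 0.00719) and H1f10 (-1.21, adjusted p = 0.0272) passed too, and without young transplanted replicate 1 H2bc21 probe set 1455095_at did (-1.64, adjusted p = 0.0475); each of these leaves 1 young array, assumed to vary like the other groups. The age effects of transplanted and steady-state HSC differed for 0 of 28 members (0.0511% of all probe sets; 0 with an unadjusted p under 0.05). Without young transplanted replicate 2, H3c7 differed between them (-2.25, adjusted p = 0.0256).

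Between iPSC of aged and of young origin 0 of 28 members passed limma's test (0.00888% of all probe sets), and 4 had an unadjusted p under 0.05: H1f4 (-0.51), H3c11 (0.41), H3c7 (0.33) and H2aj 1424772_at (0.46), each at adjusted p = 0.996. Between iPSC and ESC 0 of 28 passed (0.0733%), and 6 had an unadjusted p under 0.05. The smallest p was that of H1f2 1416101_a_at, lower in iPSC (-0.55, SE 0.14, adjusted p = 0.215). H3f3b had the largest difference (-0.73, SE 0.30, adjusted p = 0.403). The levels of H2bc21 and H3f3b printed above for ESC also lie below every steady-state array.

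Genes that process, carry or accompany histone messages and proteins were read from lists, each gene by its brightest probe set. Of 19 genes for histone mRNA 3′ ends, all measured, 11 rose and 6 fell in iPSC against steady-state HSC, with a median of 0.56. Over all probe sets 33.8% rose and 23.6% fell, with a median of 0.15. Sympk, a scaffold of the cleavage complex, rose by 1.99 (SE 0.13, adjusted p = 1.46e-08), and Zfp473, a factor of histone pre-mRNA processing, rose by 2.94 (SE 0.20, adjusted p = 2.49e-08). Srrt, which joins the cap-binding complex to such processing, rose by 0.84 (adjusted p = 1.48e-05). Npat, the coactivator of clustered histone transcription, fell by 1.81 (SE 0.21, adjusted p = 6.58e-06). Of 20 measured histone chaperones and related genes (of 23 listed), 12 rose and 4 fell, with a median of 0.49, beside the same 33.8%, 23.6% and 0.15 over all probe sets. Nasp, a carrier of H3 and H4, rose by 2.67 (SE 0.15, adjusted p = 4.28e-09), Ipo4, an importin for them, by 1.92 (adjusted p = 1.73e-06) and Daxx, a chaperone of H3.3, by 1.41 (adjusted p = 3.43e-07). Ep400, a chromatin remodeller, fell by 1.32 (adjusted p = 2.49e-07).

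Of 23 measured S phase genes (of 24 listed), 19 rose and 1 fell in iPSC, with a median of 1.03, beside 33.8% higher, 23.6% lower and a median of 0.15 over all probe sets. They included Ccne1, the cyclin that starts S phase (3.31, SE 0.26, adjusted p = 1.06e-07), and the replication licensing genes Cdt1 (1.68), Mcm3 (1.51) and Mcm2 (1.68). Of 4 measured histone variants outside the symbol pattern (of 7 listed), Cenpa, the centromeric H3, rose by 2.75 (SE 0.21, adjusted p = 8.06e-08) and Macroh2a2, a macroH2A, rose by 0.92 (SE 0.24, adjusted p = 0.00548). In transplanted against steady-state HSC, described only, the medians were -0.39 for 3′ processing, -0.57 for chaperones, -0.25 for S phase and -0.17 for the other variants, beside -0.041 over all probe sets. Slbp, which binds the stem-loop, read 9.99 to 10.58 on steady-state and 9.45 to 10.44 on transplanted arrays, which overlap. Other genes of that list lay apart. Npat read 10.02 to 10.66 on steady-state and 8.11 to 9.36 on transplanted arrays, and Sympk, in the other direction, 6.09 to 6.92 and 7.09 to 7.30. Of the 19 genes for 3′ processing, 4 were above 0 in this contrast. No gene of these lists passed limma's test for age in either kind of HSC, for the difference of age effects, for iPSC origin age or for iPSC against ESC. With age in steady-state HSC, 1 of 23 S phase genes was above 0 and 9 had an unadjusted p under 0.05 in limma's test. Their median was -0.47, beside -0.02 over all probe sets. The matching shares over all probe sets were not counted, so nothing is read from these counts.

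The genes whose 7 group means followed the mean of the clustered probe sets most closely, of 14887 genes compared, were Pja2 (r = 0.999), 2810013P06Rik (0.998), Nudt3 (0.997), Tmem181a (0.997) and Vps33a (0.996). The clustered mean was 6.63 and 6.53 in young and aged steady-state HSC, 7.34 and 7.01 in young and aged transplanted HSC, and 5.68, 5.70 and 5.65 in young-origin iPSC, aged-origin iPSC and ESC.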

How the data were processed

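RNA of 16 samples was read on Affymetrix arrays of 1 channel, after QIAGEN microRNeasy extraction and standard Affymetrix cRNA labelling, per the labels. The starting point was the linear intensity deposited by the authors, 1 per probe set and array (4.53 to 31493, 0 missing); its summarisation and normalisation were not given in the sources used here. Each intensity was log2-transformed with no pseudocount and no filter. Probe sets were named from the platform annotation: of 45037 non-control probe sets, 34945 had 1 gene symbol, 932 several and 9160 were not listed; all 28 members matched RefSeq by gene ID. Of the members, 26 had a mean above the 25th percentile of all probe sets, and all were kept.

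Limma 3.58.1 (lmFit and eBayes, R 4.3.3) was fitted over all 45037 probe sets, to the 10 HSC arrays, the 6 iPSC and ESC arrays, or all 16 arrays for iPSC against HSC. p-values were adjusted by Benjamini-Hochberg over all probe sets, called under 0.05, and measure the spread between arrays. The share of all probe sets with an unadjusted p under 0.05 was not counted. Nothing is therefore read from such counts of members or list genes. The fits were tested on simulated data. Of 2-fold changes, 26% were recovered for age in steady-state HSC and 10% for age in transplanted HSC. The shares were 97% for iPSC origin age, 100% for iPSC against ESC and 87% for iPSC against steady-state HSC. A count of 0 for age in HSC thus does not exclude 2-fold changes. The number of arrays limits the precision.

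The members and all gene lists were chosen with earlier results of these data known. Values are named for the 3 brightest clustered probe sets of each histone, the brightest of each variant gene, the called members with the smallest p (up to 5 per direction and contrast), the 5 largest differences per direction between transplanted and steady-state HSC, up to 4 called list genes per contrast and the 5 genes most like the clustered mean; other members are given to account for all. Motifs were searched in RefSeq promoter windows. Replicate numbers did not pair the samples. Other scalings, filters, an added 64, 1 probe set per gene, a replicate block and leaving out each array were tried as alternatives.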

Additional observations from a re-analysis of the deposited data

How the results depend on the processing

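The counts of members called for age in steady-state HSC, for iPSC origin age and for iPSC against ESC were 0 under every alternative run, among them quantile normalisation, median centring, filters at the 25th and 50th percentile, the brightest probe set per gene and each array left out. For age in transplanted HSC the count was 1 with all 16 arrays in 1 fit and 0 to 3 with an array left out, and for the difference of age effects 0 to 1. For iPSC against steady-state HSC it was 16 to 21 with an array left out. With the replicate number as a block, 0 members were called in each age contrast, for iPSC origin age and for iPSC against ESC, and 21 for iPSC against steady-state HSC. Same-numbered arrays did not deviate together (r of -0.019, -0.332 and 0.172 in steady-state, -0.129 in transplanted HSC and -0.089 in iPSC). With the transplanted numbers crossed in the block, a setting chosen after seeing the data, 0 members and 54 probe sets were called for age, against 34 with the numbers as labelled and 375 without the block.

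The clustered median for transplanted minus steady-state HSC, 0.43, became 0.22 with arrays centred on their medians, 0.088 with the brightest probe set per gene and 0.23 with 64 added, and was 0.35 to 0.48 with an array left out. The replacement median, 0.043, turned to -0.16 with centred arrays, to -0.21 without probe sets ending in _x_at or _s_at, to -0.094 without young transplanted replicate 1 and to -0.019 without aged transplanted replicate 2; it was -0.094 to 0.113 with an array left out. Their difference, 0.39, became 0.055 with the brightest probe set per gene and was 0.24 to 0.47 with an array left out. For iPSC minus steady-state HSC the replacement median, 0.39, became 0.70 with the brightest probe set per gene and was 0.33 to 0.44 with an array left out; the clustered median was -0.20 to -0.09 and their difference -0.59 to -0.47. The cause of these moves was not tested. With each HSC array left out in turn, a setting extended to all members after seeing the data, the difference between transplanted and steady-state HSC turned sign for 3 of 28 probe sets (H2bc21 1455095_at and both of H2az1) and turned or moved over 1.5 times for 10. Members near the 25th percentile (H1f4, H3c4 and H3c11) have the least certain folds.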
